A study of Homo sapiens with 36 samples.

Results

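The 39 genes of the HOX clusters were followed in HEK293, an established human cell line that came from embryonic kidney. They were found by symbol, as every gene named HOXA, HOXB, HOXC or HOXD with a paralog number, among 36601 genes in the count table. Bulk polyA-selected RNA was sequenced in 12 libraries, with 3 in each of 4 groups: clone 5 with the ligand HyT36, clone 5 with DMSO, clone 4 with HyT36, and clone 4 with DMSO. HyT36 is a hydrophobic ligand of HaloTag, a protein tag that binds its ligands covalently, and per the design text a tagged protein misfolds when HyT36 is present. The protocols give 25 µM HyT36, and DMSO was the vehicle. All 12 libraries, the DMSO ones included, came from cells that had received a guide library and a HaloTag donor construct, and each line is 1 clone. The sources used here give neither the tagged protein nor the exposure time of these cultures. Reads of a guide named for IGF1R were 2623 to 3806 per clone 5 library and 5 to 13 per clone 4 library, and reads of a guide named for HDAC2 were 2 to 18 per clone 5 library and 2318 to 3504 per clone 4 library. A guide named for LRIG1 had 107 to 140 reads per clone 5 library and 0 in clone 4. Untagged cells were not among the 12 libraries, so an effect of HyT36 on its own and an effect that needs the tag cannot be told apart. Nothing in the labels says that replicate libraries came from separate cultures, and each p-value then reflects the spread between libraries alone, which may be technical.

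HOX genes encode homeodomain transcription factors that give cells along the head-to-tail axis their positional identity. They lie in 4 clusters, and genes with the same number in different clusters are paralogs. Low numbers are used towards the head, high numbers towards the tail and the ends of the limbs, and in many adult tissues and cell lines part of the pattern is kept. Polycomb proteins hold HOX genes silent and Trithorax (MLL) proteins hold them active, retinoic acid and CDX factors switch them on in the embryo, and PBX and MEIS proteins of the TALE class bind DNA together with HOX proteins.

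Gene counts were 22853946 to 28635511 per library, and levels are given as CPM, a library's counts scaled to a common total, with TMM normalization for composition. The HEK293 marker list (9 genes) summed to 364 to 478 CPM over the 12 libraries, although NEFL had at most 1 read and NEFM at most 3 reads per library. The libraries were not alike in epithelial markers. KRT19, a keratin gene, was at 32.2 to 69.9 CPM in 6 libraries (all 3 of clone 5 with DMSO, replicates 2 and 3 of clone 4 with HyT36, and replicate 1 of clone 4 with DMSO) and at 0.0419 to 0.235 CPM in the other 6. The list of 12 epithelial markers summed to 62.9 to 126 CPM in the KRT19-rich libraries, against 8.60 to 16.1 CPM in the others. Within clone 5 the KRT19-rich libraries were exactly the DMSO libraries, so there KRT19 status and ligand cannot be told apart. Calls of HOX genes that changed with a term for this split are named with their values. The size of that term comes from clone 4 libraries alone and is carried over to clone 5. Fits within the libraries of 1 kind leave 1 clone 4 library in a group, so only effect sizes are given for them.

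HOXA13 and HOXA9, both on chromosome 7, passed the test for HyT36 against DMSO in both clones, and their promoter sequences are shown because the ligand results turn on them. HOXA13 spans chr7:27194364-27200091 and patterns the hindgut, the genital tract and the ends of the limbs. HOXA9 spans chr7:27162438-27165537 and is best known for its role in blood stem cells and leukaemia. The sequences are RefSeq promoter windows on GRCh38.p14 that run 5′ to 3′ on the minus strand, with each CG dinucleotide in capitals.
HOXA13 (chr7:27200042-27200341): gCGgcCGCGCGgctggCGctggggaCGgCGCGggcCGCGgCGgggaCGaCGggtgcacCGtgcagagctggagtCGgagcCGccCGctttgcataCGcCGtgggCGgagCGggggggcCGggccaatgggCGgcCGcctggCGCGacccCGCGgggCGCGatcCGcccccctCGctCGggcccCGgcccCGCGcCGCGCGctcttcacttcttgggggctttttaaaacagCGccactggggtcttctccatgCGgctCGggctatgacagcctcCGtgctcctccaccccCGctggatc
HOXA9 (chr7:27165488-27165787): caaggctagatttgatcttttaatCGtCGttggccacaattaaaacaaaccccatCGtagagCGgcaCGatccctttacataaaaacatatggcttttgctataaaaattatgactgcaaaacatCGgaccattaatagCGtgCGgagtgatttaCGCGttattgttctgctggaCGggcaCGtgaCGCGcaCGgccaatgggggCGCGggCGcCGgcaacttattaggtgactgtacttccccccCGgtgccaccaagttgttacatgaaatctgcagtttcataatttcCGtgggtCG
The HOXA13 window holds 44 CG dinucleotides, a GC share of 76.3%, and the motifs CCAAT and TGACAG. The HOXA9 window holds 22 CG dinucleotides, a GC share of 48.0%, and the motifs TATAAA and CCAAT. Of the 39 genes, 20 matched the RefSeq promoter table, which gave 26 distinct windows of 300 bases (250 before and 50 after the start). From HOXB only HOXB1 matched, and from HOXC only HOXC4 and HOXC5, which share a window. The shares below therefore describe mostly HOXA and HOXD. HOX windows had a median of 22.5 CG dinucleotides, against 14 over all 34943 windows. Searched on both strands, CCAAT was in 65.4% of HOX windows and 34.6% of all windows. TATAAA was in 19.2% and 11.6%, and TGACAG, the core bound by MEIS proteins, was in 15.4% and 15.8%. The PBX-HOX motif TGATTGAT was in 2 of the 26 HOX windows (7.69%), those of HOXA2 and HOXD11, and in 0.487% of all windows. TGATTTAT was in 0 HOX windows and 0.844% of all windows. TATAAA was found in 4 of the 9 windows of HOX genes that were expressed in both clones, defined next, and in 1 of the other 17, and CCAAT in 7 of 9 and 10 of 17. These count windows and not genes: the 9 came from 8 genes and the 17 from 11. Several of the 17 belong to HOXA3, most of them without either motif, so the shares by gene differ from these. These matches describe letters in a window and say nothing of binding.

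To describe which members were active, a gene was called expressed in a clone when its mean over the clone's 6 libraries reached 1 CPM, weak from 0.1 to 1 CPM, and near silent below 0.1 CPM. In clone 5, 19 of 39 HOX genes were expressed, 9 weak and 11 near silent, and in clone 4, 19 were expressed, 11 weak and 9 near silent. Over all 36601 genes, 34.4% were expressed and 53.3% near silent in clone 5, and 34.2% and 54.3% in clone 4. The class was the same in both clones for 35 HOX genes, and 18 were expressed in both. With a threshold of 0.5 CPM 23 genes were expressed in each clone. RefSeq spans of 20 of the 39 genes overlap another gene, among them HOXA3 with HOXA4, HOXA5 and HOXA6, HOXC4 with HOXC5 and HOXC6, HOXB3 with HOXB4, HOXD3 with HOXD4, and HOXA10 with its antisense RNA. How the authors' counting split such reads is not stated in the labels, so the values of those genes are uncertain. HOXA9, HOXA11, HOXA13, HOXB9, HOXB13, HOXC8, HOXD12 and HOXD13 overlap no other RefSeq span of a gene in the count table. The annotation used for counting is not given, and its spans may differ, so overlap is not excluded for these genes either. Transcript lengths were not used, so levels are compared between libraries and not between genes.

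**Figure D1:**
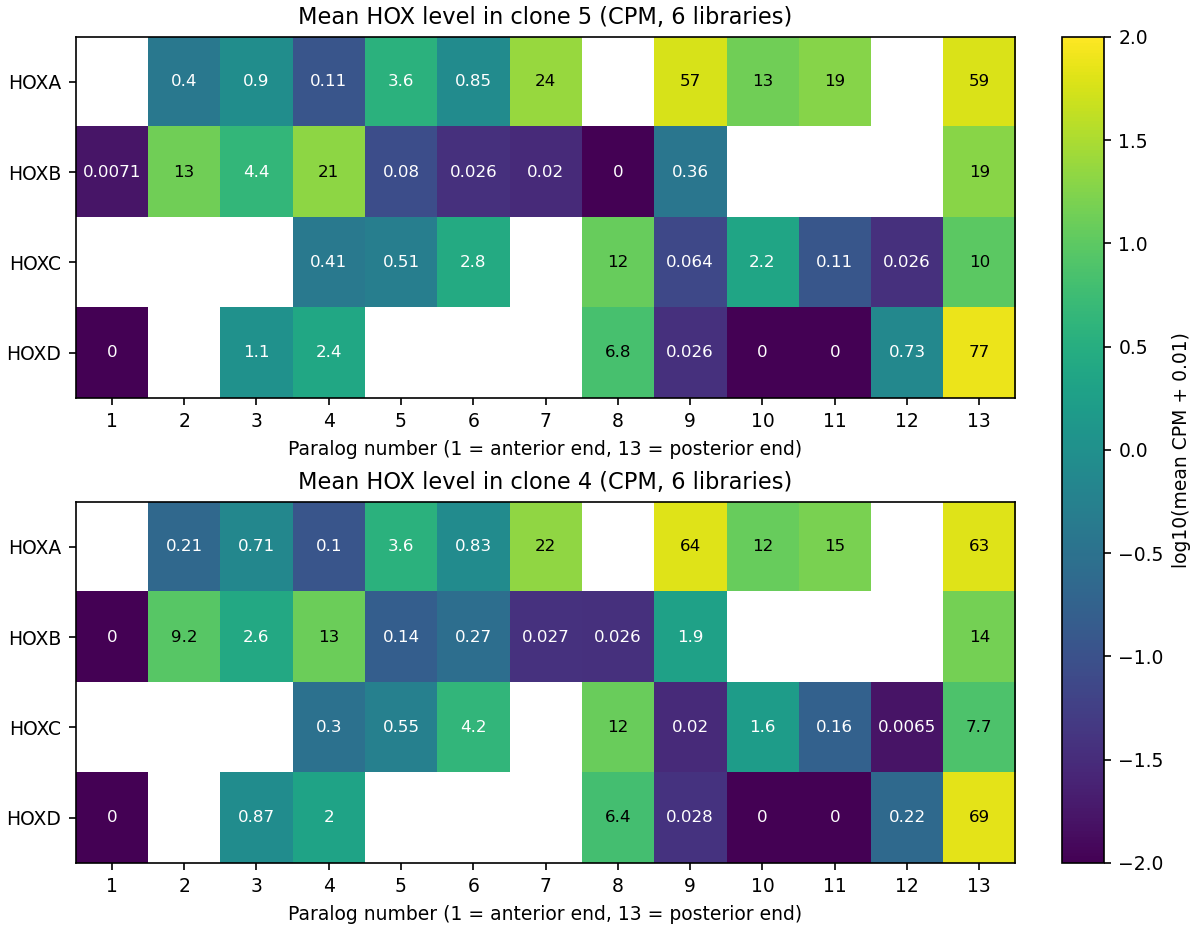
Mean level of each HOX gene by cluster (rows) and paralog number (columns, 1 to 13), for clone 5 and clone 4, each over 6 libraries, in TMM-scaled CPM on a log color scale; white cells hold no value. Paralog 13 is expressed in every cluster in both clones, HOXD9 to HOXD11 are near silent in both, and HOXB5 to HOXB8 are near silent or weak.

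The HOXA cluster (chromosome 7) was the one with no near-silent member. HOXA5, HOXA7, HOXA9, HOXA10, HOXA11 and HOXA13 were expressed in both clones, and HOXA2, HOXA3, HOXA4 and HOXA6 were weak in both. HOXA4 lay close to the lower limit, at 0.105 ± 0.106 CPM in clone 5 and 0.104 ± 0.0943 CPM in clone 4 (SD, n = 6 each).

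In the HOXB cluster (chromosome 17), HOXB2, HOXB3, HOXB4 and HOXB13 were expressed in both clones, and HOXB1, HOXB7 and HOXB8 were near silent in both. HOXB9 was weak in clone 5, at 0.359 ± 0.144 CPM, and expressed in clone 4, at 1.94 ± 0.349 CPM (SD, n = 6 each). HOXB5 and HOXB6 were near silent in clone 5 and weak in clone 4. Between the expressed HOXB4 and HOXB13, the stretch from HOXB5 to HOXB8 was at 0 to 0.0795 CPM in clone 5 and 0.0262 to 0.272 CPM in clone 4.

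In the HOXC cluster (chromosome 12), HOXC6, HOXC8, HOXC10 and HOXC13 were expressed in both clones, HOXC4, HOXC5 and HOXC11 were weak, and HOXC9 and HOXC12 near silent. In the HOXD cluster (chromosome 2), HOXD4, HOXD8 and HOXD13 were expressed in both clones, and HOXD12 was weak. HOXD3 sat at the limit, with a mean of 1.05 CPM in clone 5 and 0.868 CPM in clone 4. HOXD9 was near silent with 4 reads in each clone, and HOXD1, HOXD10 and HOXD11 had 0 reads in all 12 libraries. A count of 0 over these libraries allows a level of up to 0.00989 CPM (3 reads in 303316634 gene counts, counting error only).

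Across paralog positions, activity was spread along the clusters and not confined to one end. At positions 1 to 3, 4 of 8 genes were expressed in clone 5 and 3 of 8 in clone 4. At positions 4 to 8 the number was 7 of 15 in each clone, and at positions 9 to 13 it was 8 of 16 in clone 5 and 9 of 16 in clone 4. Only positions 4, 9 and 13 have a member in all 4 clusters. Among them, paralog 13, the most tailward group, was the one whose members were all expressed in both clones. Among the 18 genes expressed in both clones, the ratio of the highest to the lowest of the 12 libraries was smallest for HOXA7 (1.26) and largest for HOXC10 (5.10).

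HOXA13 rose and HOXA9 fell with HyT36 in both clones, and no other tested HOX gene passed in either. A total of 26 HOX genes passed the filter on low counts and were tested with edgeR's quasi-likelihood test, and the other 13 (HOXA4, HOXB1, HOXB5, HOXB6, HOXB7, HOXB8, HOXC9, HOXC11, HOXC12, HOXD1, HOXD9, HOXD10 and HOXD11) did not pass it. In clone 5, 2 of 26 passed an adjusted p of 0.05, 1 higher and 1 lower, against a background of 8.19% of 14892 genes tested (3.35% higher and 4.83% lower). In clone 4, 2 of 26 passed, 1 higher and 1 lower, against a background of 5.57% (2.21% higher and 3.36% lower). The share of HOX genes called, 7.69% in each clone, is near the background. The median log2 fold change over the 26 was -0.09 in clone 5 and -0.08 in clone 4, against -0.00 in clone 5 and 0.00 in clone 4 over all genes tested.

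HOXA13 was at 64.8, 68.4 and 62.9 CPM in the 3 clone 5 libraries with HyT36, against 52.8, 51.4 and 55.4 CPM with DMSO. All 3 HyT36 libraries were above all 3 DMSO libraries. The means were 65.3 ± 2.79 and 53.2 ± 1.99 CPM (SD, n = 3 each), a log2 fold change of 0.30 ± 0.05 (SE, edgeR adjusted p = 0.000179). In clone 4 it was at 74.9, 67.4 and 74.1 CPM with HyT36, against 57.0, 49.9 and 52.7 CPM with DMSO. Again the groups did not overlap. The means were 72.2 ± 4.10 and 53.2 ± 3.53 CPM (SD, n = 3 each), a log2 fold change of 0.44 ± 0.05 (SE, edgeR adjusted p = 1.19e-07). In clone 4, where both kinds of library occur with both treatments, the log2 fold change was 0.54 in the libraries with low KRT19 and 0.32 in the KRT19-rich ones. The first rests on 1 library with HyT36 and the second on 1 library with DMSO. Over all alternatives in clone 4 the adjusted p was 1.33e-15 to 0.0473.

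HOXA9, which lies on the same chromosome nearer the head-side end of the cluster than HOXA13, moved the other way. It was at 55.7, 50.9 and 52.7 CPM in clone 5 with HyT36, against 58.4, 66.4 and 60.7 CPM with DMSO. The groups did not overlap. The means were 53.1 ± 2.44 and 61.8 ± 4.13 CPM (SD, n = 3 each), a log2 fold change of -0.22 ± 0.05 (SE, edgeR adjusted p = 0.00401). In clone 4 it was at 57.6, 59.3 and 60.2 CPM with HyT36, against 67.0, 71.1 and 66.9 CPM with DMSO, also without overlap. The means were 59.1 ± 1.33 and 68.3 ± 2.37 CPM (SD, n = 3 each), a log2 fold change of -0.21 ± 0.05 (SE, edgeR adjusted p = 0.00669). The call was lost in clone 5 without replicate 2 of DMSO (adjusted p = 0.0838) and with a term for KRT19-rich libraries (0.0855), over a range of 0.00149 to 1. That term is estimated from clone 4 libraries alone, so it cannot separate KRT19 status from HyT36 in clone 5. In clone 4 the HOXA9 call was lost without replicate 2 of DMSO (0.058) and without replicate 1 of HyT36 (0.0509), over a range of 0.00413 to 1. Within clone 4 the log2 fold change was -0.26 in the libraries of low KRT19 and -0.16 in those of high KRT19.

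**Figure D2:**
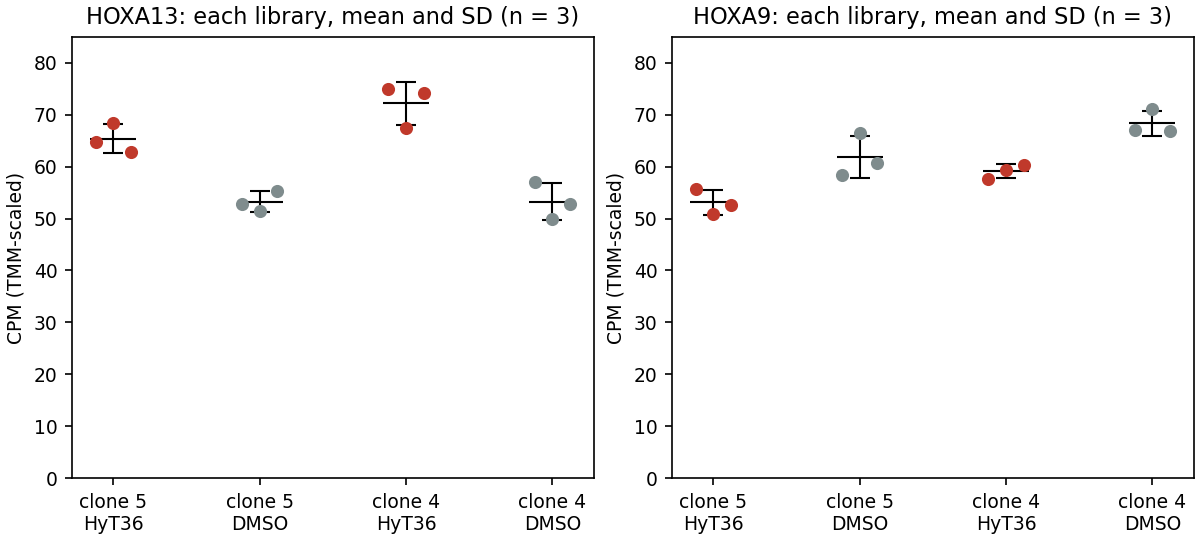
HOXA13 and HOXA9 levels (TMM-scaled CPM) in each library of the 4 groups, points for libraries and bars for the mean with SD (n = 3 each). In both clones the HOXA13 points with HyT36 (62.9 to 74.9 CPM) lie above those with DMSO (49.9 to 57.0 CPM), and the HOXA9 points with HyT36 lie below those with DMSO of the same clone.

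The responses of the clones were also set against each other. No HOX gene passed the test of the difference (0 of 26 by edgeR, DESeq2 and limma-voom), against a background of 0.302% by edgeR. At an edgeR unadjusted p under 0.05 it was also 0 of 26, against 1192 of all 14892 genes tested. The clone 5 response minus the clone 4 response was -0.14 ± 0.07 on the log2 scale for HOXA13 (SE, edgeR adjusted p = 0.636) and -0.01 ± 0.07 for HOXA9 (adjusted p = 0.989). A p that misses the threshold does not show that the responses were equal.

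The clones themselves differed in more of the HOX genes. With DMSO, 12 of 26 passed, 10 higher and 2 lower in clone 5 than in clone 4 (46.2%), against a background of 55.5% of genes tested. With HyT36, 15 of 26 passed, 11 higher and 4 lower in clone 5 (57.7%), against a background of 56%. The shares of HOX genes called are near the background with HyT36 and below it with DMSO. Among all genes tested, 27.3% were higher and 28.2% lower with DMSO, and 27% and 28.9% with HyT36. The median log2 difference of the 26 was 0.26 with DMSO and 0.22 with HyT36, against 0.00 and -0.00 over all genes. These comparisons share no libraries, and 11 genes passed in both with the same direction, which is 91.7% of the DMSO calls and 73.3% of the HyT36 calls, against 83.3% and 82.5% for the calls among all genes. As a share of genes tested it was 42.3% of HOX genes, against 46.2% of all genes. Among the 11 were HOXA9, HOXA11, HOXB2, HOXB3, HOXB4, HOXB9, HOXB13, HOXC13, HOXD12 and HOXD13. HOXA2 passed with DMSO, and HOXA7, HOXA10, HOXA13 and HOXC6 passed with HyT36. Whether those 5 differ between treatments is the test of the difference above, which none passed. In bulk RNA, fewer cells using a gene and less RNA per cell cannot be told apart.

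**Figure D3:**
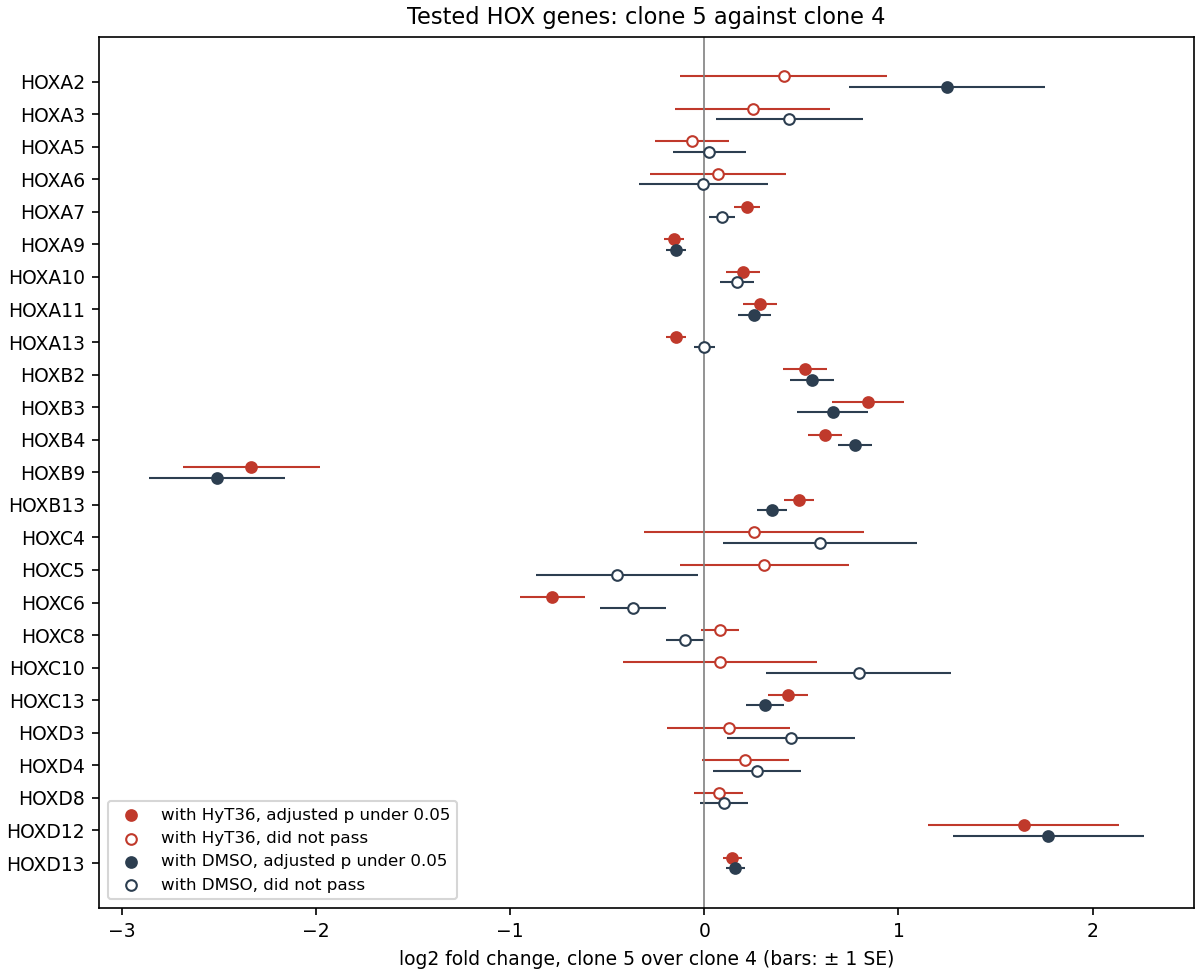
Log2 difference of clone 5 against clone 4 for tested HOX genes, with HyT36 and with DMSO, as points with the standard error; filled points passed an edgeR adjusted p of 0.05. HOXB9 lies at -2.33 with HyT36 and -2.51 with DMSO, and HOXB2, HOXB3, HOXB4, HOXB13 and HOXD12 lie above 0 in both.

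HOXB9, on the tailward side of the HOXB5 to HOXB8 stretch and a regulator of rib patterning in the mouse, had the largest log2 difference of the 26. It was at 0.460, 0.347 and 0.297 CPM in clone 5 with HyT36, against 1.59, 1.74 and 2.31 CPM in clone 4 with HyT36. With DMSO it was at 0.4999, 0.442 and 0.109 CPM in clone 5, against 2.07, 1.57 and 2.33 CPM in clone 4. In neither treatment did the clones overlap. The log2 difference was -2.33 ± 0.35 with HyT36 (SE, edgeR adjusted p = 3.91e-07) and -2.51 ± 0.35 with DMSO (adjusted p = 8.08e-08), which is 5.69-fold lower in clone 5 with DMSO, and the call held in every alternative that was run. HOXB6, too low for the filter, had 4 reads over the 6 clone 5 libraries against 41 over the 6 clone 4 libraries, a depth-adjusted ratio of 0.101 with an exact 95% interval of 0.0262 to 0.278 (counting error only). HOXB5 had 12 reads in clone 5 and 22 in clone 4, a ratio of 0.563 with an interval of 0.254 to 1.19.

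The head-side HOXB genes and HOXB13 stood the other way, higher in clone 5. HOXB4, known for its use in expanding blood stem cells, was at 20.5, 18.1 and 21.3 CPM in clone 5 with HyT36, against 11.3, 13.5 and 14.1 CPM in clone 4. With DMSO it was at 23.8, 20.3 and 20.2 CPM in clone 5, against 12.0, 12.9 and 12.7 CPM in clone 4. The groups did not overlap in either treatment. The log2 difference was 0.62 ± 0.09 with HyT36 (SE, adjusted p = 7.33e-08) and 0.78 ± 0.09 with DMSO (adjusted p = 4.81e-10). HOXB2, a hindbrain gene, differed by 0.52 ± 0.11 with HyT36 and 0.56 ± 0.11 with DMSO, and HOXB3 by 0.84 ± 0.19 and 0.66 ± 0.18. HOXB13, which acts in the prostate and the tail end of the gut, was at 18.7 ± 0.572 CPM in clone 5 and 13.3 ± 0.517 CPM in clone 4 with HyT36 (SD, n = 3 each), a log2 difference of 0.49 ± 0.08. HOXB3 with DMSO differed by 0.49 in the KRT19-rich libraries alone, where clone 4 has 1 library. HOXB3 and HOXB4 share span, so their values may not be separate.

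In HOXA, 4 genes passed with DMSO and 6 with HyT36. HOXA11, which patterns the forearm and the uterus, differed by 0.29 ± 0.09 with HyT36 (adjusted p = 0.00566) and 0.26 ± 0.09 with DMSO (adjusted p = 0.0107). That call was lost with HyT36 without replicate 1 of clone 5 (adjusted p = 0.0683) or replicate 2 of clone 4 (0.0538), and with DMSO without replicate 1 of clone 5 (0.0636) or replicate 1 of clone 4 (0.0937). With HyT36 its difference was 0.15 with the KRT19 term (adjusted p = 0.222) and 0.18 in the libraries with low KRT19, where clone 4 has 1 library. HOXA9 was lower in clone 5 by a small amount, with log2 differences of -0.15 ± 0.05 with HyT36 (adjusted p = 0.0108) and -0.14 ± 0.05 with DMSO (adjusted p = 0.0147). Its call was lost with HyT36 without replicate 2 of clone 5 (0.0601) or replicate 3 of clone 4 (0.0602), and with DMSO without replicate 1 of clone 5 (0.112) or replicate 2 of clone 4 (0.0914). The HOXA9 difference was -0.11 with HyT36 in the libraries with low KRT19 and -0.11 with DMSO in the KRT19-rich libraries. HOXA13 had a log2 difference of 0.00 ± 0.05 with DMSO and of -0.14 ± 0.05 with HyT36 (adjusted p = 0.0178), where the libraries of the clones overlapped, and the call was lost in 6 of 22 alternatives, among them leaving out replicate 1 or 3 of clone 5 with HyT36 (0.0566 and 0.119) or replicate 1 or 3 of clone 4 with HyT36 (0.0922 and 0.0988), and the KRT19 term (0.0895). HOXA7 differed by 0.22 ± 0.07 with HyT36 (adjusted p = 0.00482), and by 0.24 in the libraries with low KRT19. HOXA10 (0.20 ± 0.09 with HyT36, adjusted p = 0.0493) lost its call in 12 of 22 alternatives, with adjusted p-values of 0.0518 to 0.265 when 1 library was left out (any clone 5 library with HyT36, replicate 2 of clone 4 with HyT36, or replicate 1 of clone 4 with DMSO). HOXA10 also missed the threshold with the KRT19 term (0.327), and its difference was 0.13 in the libraries with low KRT19. With DMSO, it passed without replicate 3 of clone 5 (0.0331). HOXA2 (1.25 ± 0.50 with DMSO, adjusted p = 0.0336) lost its call in 8 of 21 alternatives, among them leaving out replicate 3 of clone 5 with DMSO (0.173) or replicate 1 or 2 of clone 4 with DMSO (0.092 and 0.0829), and the KRT19 term (0.113). In the KRT19-rich libraries alone the HOXA2 difference with DMSO was 1.53.

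In HOXC and HOXD, HOXC13, HOXD12 and HOXD13 passed in both treatments and HOXC6 with HyT36. HOXC13, a gene of hair and nail, was at 9.30 ± 0.696 CPM in clone 5 and 6.89 ± 0.423 CPM in clone 4 with HyT36 (SD, n = 3 each), a log2 difference of 0.43 ± 0.10 (adjusted p = 0.00037). With DMSO it was 0.31 ± 0.10 (adjusted p = 0.00674), and 0.33 in the KRT19-rich libraries alone. HOXC6 was at 2.85, 2.17 and 3.06 CPM in clone 5 with HyT36, against 4.36, 5.07 and 4.47 CPM in clone 4, a log2 difference of -0.78 ± 0.17 (SE, adjusted p = 0.000136). With DMSO it was -0.37 ± 0.17 (adjusted p = 0.0622), and it passed without replicate 2 of clone 5 with DMSO (0.0484) or replicate 3 of clone 4 with DMSO (0.0362), and with the KRT19 term (-0.48, adjusted p = 0.0357). HOXC6 shares its span with HOXC4 and HOXC5. HOXD12 was weak, at 1.26, 0.347 and 0.509 CPM in clone 5 with HyT36, against 0.325, 0.148 and 0.192 CPM in clone 4. Replicate 1 of clone 5 stood above the other libraries. The log2 difference was 1.64 ± 0.49 with HyT36 (adjusted p = 0.00425) and 1.77 ± 0.49 with DMSO (adjusted p = 0.00232). The HyT36 call was lost without replicate 1 of clone 5 with HyT36 (0.94, adjusted p = 0.164) and with the KRT19 term (0.0862). In the libraries with low KRT19 the HOXD12 difference with HyT36 was 1.12. HOXD13, the gene of the digits, was at 74.3, 70.7 and 77.9 CPM in clone 5 with HyT36, against 64.0, 69.7 and 68.3 CPM in clone 4, a log2 difference of 0.14 ± 0.05 (adjusted p = 0.0121) that did not pass without replicate 3 of clone 5 (0.0779) or replicate 1 of clone 4 (0.101).

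Some HOXC genes moved with KRT19. HOXC10, a gene of the lumbar region and hindlimb in the mouse, had 53 to 76 reads (2.04 to 3.12 CPM) in the 6 KRT19-rich libraries and 17 to 40 reads (0.613 to 1.69 CPM) in the other 6. HOXC11, its neighbour, had 3 to 17 reads in the KRT19-rich libraries and 0 or 1 in the others, with sums of 40 and 1. Among the KRT19-rich clone 4 libraries, HOXC11 had 17 reads in replicate 1 with DMSO, and 3 each in replicates 2 and 3 with HyT36. Neither gene overlapped between the 2 kinds of library, and none of the other 37 did the same. The share of all genes that separate in this way was not counted, so whether this is unusual for HOX genes is not known. HOXC9 had 12 reads over the KRT19-rich libraries and 1 over the others. Of the 12, 10 came from clone 5 with DMSO, where KRT19 status and treatment coincide, and all of clone 4 had 3 reads. HOTAIR, a non-coding gene that overlaps HOXC11, had 1 to 4 reads in each KRT19-rich library and 0 in the others. The part of the epithelial transcripts in these HOXC values was not tested.

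For HOXC10 this split met the treatments. In clone 5, HOXC10 was at 1.67, 1.69 and 1.57 CPM with HyT36, against 3.12, 2.50 and 2.77 CPM with DMSO. The log2 fold change was -0.76 ± 0.48 (SE, edgeR adjusted p = 0.447). It passed when only the clone 5 groups were fitted (-0.75, adjusted p = 0.0101) or without replicate 1 of clone 4 with DMSO (adjusted p = 0.0494). With a term for KRT19-rich libraries, estimated from clone 4 libraries alone, the clone 5 change of HOXC10 was 0.85 (adjusted p = 0.133). In clone 4 it was at 0.613, 2.04 and 2.04 CPM with HyT36, against 2.88, 1.10 and 0.874 CPM with DMSO, and in each group the KRT19-rich libraries were the higher ones. HOXC11 had 0 reads in clone 5 with HyT36 and 17 with DMSO. With the 0 set to a floor of 3 reads over the group it was 5.08-fold lower, which leaves out the counting error of the 17. The exact 95% interval of the read ratio starts at 3.70-fold lower. HOXC9 had 0 and 10 reads, 2.99-fold lower with that floor, and its interval starts at 2.01-fold lower. Between the clones with DMSO, the HOXC10 log2 difference was 0.79 (adjusted p = 0.188), and it passed without replicate 1 of clone 4 with DMSO (1.49, adjusted p = 0.000117) or replicate 1 of clone 4 with HyT36 (0.79, adjusted p = 0.0305), and was -0.08 with the KRT19 term (adjusted p = 0.81). Between the clones with HyT36, it was 0.08 (adjusted p = 0.905) over all libraries and 1.33 with the KRT19 term (adjusted p = 0.000227). In the libraries with low KRT19, where clone 4 with HyT36 has replicate 1 alone, it was 1.42.

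**Figure D4:**
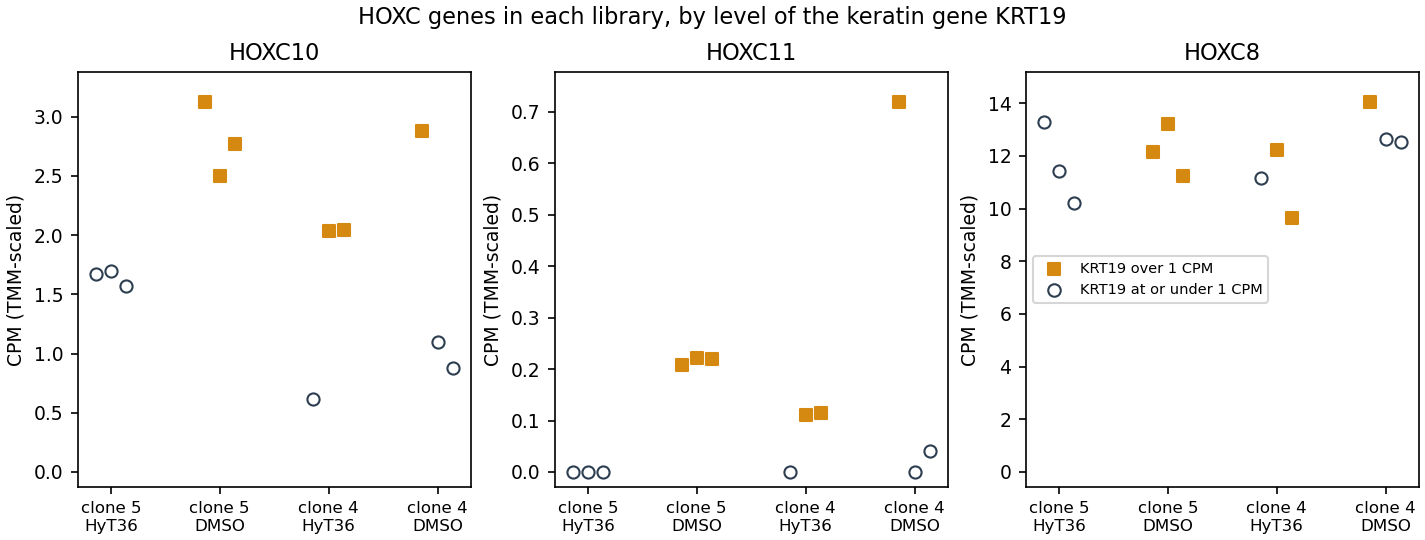
HOXC10, HOXC11 and HOXC8 levels (TMM-scaled CPM) in each library of the 4 groups, with squares for libraries with KRT19 over 1 CPM and circles for the others. HOXC10 and HOXC11 separate the 2 kinds of library, at 2.04 CPM and above and at 0.111 CPM and above for the squares, and HOXC8 does not.

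The non-coding genes of the clusters were tested in 9 of 20 cases. With HyT36 against DMSO, 0 of the 9 passed in clone 5 and 0 in clone 4 by edgeR, against 8.19% and 5.57% of all genes tested. Between the clones with DMSO, 5 were higher and 2 lower in clone 5, against 27.3% higher and 28.2% lower over all genes tested. HOTTIP, transcribed from beside HOXA13, was at 9.56 ± 0.702 CPM in clone 5 and 4.02 ± 0.258 CPM in clone 4 (SD, n = 3 each), a log2 difference of 1.25 ± 0.12 (adjusted p = 2.07e-11). HOTAIRM1, also in the HOXA cluster, was at 13.8 ± 0.598 and 8.35 ± 0.347 CPM, a difference of 0.73 ± 0.09, and HOXA11-AS differed by 0.65 ± 0.07. HOXA-AS3 and HOXB-AS1 were also higher, and HAGLR and HAGLROS, in HOXD, were lower in clone 5. With HyT36, 4 were higher and 1, HAGLROS, lower, against 27% and 28.9% over all genes. Strand handling is not stated in the labels, so reads of a HOX gene and an antisense partner in its span cannot be told apart.

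The proteins that control or accompany HOX genes were described by lists, and their counts are read against all genes tested: 3.35% higher and 4.83% lower with HyT36 in clone 5, 2.21% and 3.36% in clone 4, and 27.3% higher and 28.2% lower between the clones with DMSO. Of the 9 TALE partners tested, 1 was higher with HyT36 in clone 5 and 0 passed in clone 4. In the DMSO comparison of the clones, where 27.3% of all genes were higher and 28.2% lower, 4 were higher and 3 lower in clone 5, with MEIS3 (0.72 ± 0.09) higher and PBX2 (-0.30 ± 0.05) lower. Of 31 Polycomb genes, 5 fell with HyT36 in clone 5, among them CBX2, CBX6, CBX8 and MTF2, and 4 in clone 4, among them CBX2, CBX6 and CBX8, and 0 rose in either. CBX proteins read the histone mark that Polycomb leaves. CBX8 was at 18.7 ± 0.891 CPM with HyT36 and 22.8 ± 1.06 CPM with DMSO in clone 5, a log2 fold change of -0.29 ± 0.07 (SE, edgeR adjusted p = 0.00465), and 25.1 ± 0.401 and 31.6 ± 0.719 CPM in clone 4 (SD, n = 3 in each group), a log2 fold change of -0.33 ± 0.06 (adjusted p = 0.000582). Between the clones with DMSO, where 27.3% of all genes were higher and 28.2% lower, 5 Polycomb genes were higher and 14 lower in clone 5, with RBBP7 (1.18 ± 0.04) higher and BMI1 (-0.67 ± 0.04) lower.

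Of the 20 Trithorax and MLL genes, KMT2C and MLLT10 rose with HyT36 in clone 5, and in clone 4 PSIP1 rose and KMT2A and KDM6B fell. Without HyT36, 3 were higher and 9 lower in clone 5 (55.5% of all genes called), with ASH2L (0.78 ± 0.04) and KDM6A (0.82 ± 0.06) higher and MLLT3 (-1.78 ± 0.12) lower. Of 16 retinoid and caudal regulators tested, ALDH1A2, a retinoic acid synthase, rose (0.15 ± 0.04) and DHRS3 fell (-0.22 ± 0.06) with HyT36 in clone 5, and 0 passed in clone 4. Between the clones with DMSO 3 were higher and 5 lower in clone 5, against 55.5% of all genes called. The receptor gene RARB was at 5.92 ± 0.295 CPM in clone 5 and 1.30 ± 0.290 CPM in clone 4 (SD, n = 3 each), a log2 difference of 2.18 ± 0.18 (adjusted p = 9.06e-14). CDX2, a caudal transcription factor that acts upstream of tailward HOX genes in the embryo, was at 2.04 ± 0.144 and 8.36 ± 0.681 CPM, a log2 difference of -2.03 ± 0.15, and CYP26B1, which breaks retinoic acid down, differed by -2.44 ± 0.15. Of the 9 genes beside the clusters that were tested, CBX5 rose with HyT36 in both clones (0.11 ± 0.04 in clone 5 and 0.14 ± 0.04 in clone 4), and with DMSO 4 were higher and 1 lower in clone 5 than in clone 4, against 55.5% of all genes called, among them SNX10 (1.21 ± 0.10) higher.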

How the data were processed

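The authors deposited 1 table of raw gene counts, not normalized, per the file headers. Per the labels, bulk RNA was polyA-selected and prepared with a NEBNext Ultra II kit. Per the submitters' processing notes, GRCh38 and Cell Ranger 7 were used in the series, without a stated role for bulk libraries. Aligner, gene annotation and strandedness were not given in the sources used here. Columns were matched to the 12 bulk samples by name; the other 24 samples of the series were not analysed here. The 4 summary entries and 22344 guide features were left out, and gene counts made up 82.4 to 83.9% of a library's deposited counts.

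With R 4.3.3 and edgeR 4.0.16, genes were filtered by filterByExpr with the groups (14892 left), scaled by TMM, and fitted with 1 mean for each of 4 groups over all 12 libraries by the robust quasi-likelihood F-test, two-sided. P-values were adjusted by Benjamini-Hochberg across all genes tested, at a threshold of 0.05. The prior count was 0.125. Standard errors were approximated as the absolute log2 fold change over the square root of F. A total of 23 alternatives were run, with DESeq2 1.42.0 and limma 3.58.1 among them. The code was tested on simulated counts. Replicates were compared by chi-square per degree of freedom, which was 1.90 to 8.15, so no pair looked like 1 library deposited 2 times. Floors and intervals cover counting error only. Of each list the text may name up to 4 called members with the smallest p per comparison, and members that a count of 5 or fewer covers. A few members are not reported here. The members, lists and tests were chosen with earlier results of these data known.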

Additional observations from a re-analysis of the deposited data

How the results depend on the processing

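Of the HOX genes called with HyT36 in clone 5, 2 in the design as written, 1 was left with a term for KRT19-rich libraries and 0 with a fold threshold of 1.2, and leaving out each library gave 1 to 3. For clone 5 that term rests on clone 4 libraries alone. In clone 4, 2 became 1 with a fold threshold of 1.2, and leaving out each library gave 1 to 2. Between the clones, 12 became 6 with DMSO and 15 became 8 with HyT36 at a fold threshold of 1.2, and leaving out each library gave 10 to 13 and 12 to 16. The difference of responses had 0 calls in every alternative that was run. No called HOX gene reversed. The cause of these changes was not tested, other than that a fold threshold asks for more than a change. Fits on libraries of 1 KRT19 kind could not be made for every comparison, since clone 5 has 1 kind per treatment. Those that were made left 1 clone 4 library in a group, so their counts of calls are not given.

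Over all genes tested, calls in clone 4 went down to 52 at a fold threshold of 1.2, against 830. In clone 5 they went down to 776 with the KRT19 term and 37 at that threshold, against 1219. Between the clones at that threshold they were 3986 with DMSO and 4135 with HyT36, against 8259 and 8337.

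Replicate numbers are shared by the groups. Between treatments, the correlation of the deviations of same-numbered libraries was -0.056 to -0.035 in clone 5 and -0.476 to -0.218 in clone 4. Between clones it was -0.091 to 0.187 with DMSO, with 2 of 3 pairs over 0.1, and -0.048 to 0.027 with HyT36. In clone 4, same-numbered libraries of the treatments differ in KRT19 kind, so its values cannot show whether the numbers mark shared cultures. With the replicate block the counts of HOX genes called were 2 in clone 5, 2 in clone 4, 12 with DMSO, 14 with HyT36 and 0 for the difference, and HOXA10 lost its call.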
